A study of Mus musculus with 8 samples.

Results

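Transcripts of 7 transcription factors of resting and central T cells, and of the interleukin-7 receptor alpha chain, were examined in follicular regulatory T (TFR) cells. The 8 genes were Foxo1, Foxo3, Foxp1, Klf2, Klf3, Klf13, Satb1 and Il7r, taken by symbol from the 24421 genes of the deposited count table. TFR cells are regulatory T cells that enter the follicle and hold back the germinal centre. They were sorted from mouse spleen as CXCR5+ PD1+ cells carrying the Foxp3 YFP reporter, after magnetic enrichment of CD4+ T cells, and poly(A) RNA was sequenced. There were 4 WT libraries and 4 libraries of Blimp1-flox Foxp3-cre genotype, called Blimp1-flox below, in which Cre driven by Foxp3 acts on a floxed gene for the transcriptional repressor Blimp1 (Prdm1). All 8 libraries came from mice given peanut with the adjuvant cholera toxin by mouth 2 times, and spleens were taken on day 36 after challenge. The sources used here do not give age, strain, the number of floxed alleles, the Cre status of the WT mice or whether each library is a separate mouse. The p-values thus test the genotype difference only against the spread of these libraries within each genotype, which may be technical.

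FOXO factors are forkhead proteins that stay in the nucleus while phosphoinositide 3-kinase (PI3K) and AKT signalling is low, and there they sustain genes of quiescence, survival and lymph node homing. KLF2 is a zinc finger factor that FOXO1 sustains, and it drives the receptors by which T cells leave tissue and enter lymph nodes. IL-7 receptor alpha is a well-known FOXO1 target in naive T cells, and FOXP1 opposes FOXO1 at this gene. When T cells are activated these factors are generally lowered or exported from the nucleus.

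Library totals ranged from 16425538 to 27595939 counts. Levels are counts scaled to a common library total and by TMM (CPM), and every log2 fold change compares Blimp1-flox with WT. Prdm1 had 31.8 to 71.0 CPM in WT and 7.53 to 16.6 CPM in Blimp1-flox libraries, and fell by 2.14 ± 0.31 (SE) on the log2 scale (edgeR quasi-likelihood adjusted p = 0.0203). The call was lost without Blimp1-flox 1 (adjusted p = 0.103) and when genes with low counts were kept (adjusted p = 0.0502). T cell, Treg and follicular markers were present in every library: Cd3e had at least 1220 CPM, Foxp3 55.7 CPM and Cxcr5 391 CPM. All 8 Treg markers had negative values (median -0.31), and 2 of them, Il2ra and Gpr83 (-1.04, edgeR adjusted p = 0.00502), fell. In edgeR 30 of all 12363 genes tested were called lower. DESeq2 called 3 of the 8 lower and limma-voom 4, beside 2.19% and 2.33% of all genes. Without overlap 3 of the 8 lay below WT, as did 4.72% of all genes tested. All 9 follicular markers had positive values (median 0.22), and edgeR, DESeq2 and limma-voom called 0 of them. At an unadjusted p under 0.05 in edgeR 2 of the 9 were higher, as were 879 of the 12363 genes. Above WT without overlap lay 2 of the 9 and 464 of the 12363. The part of these markers in the results was not tested. WT 4 stood apart in B cell transcripts. Bank1, a B cell scaffold gene, had 4.64, 5.01, 15.3 and 53.1 CPM in WT 1 to 4 and 1.40, 2.00, 2.16 and 0.724 CPM in Blimp1-flox 1 to 4. Of the 17 B cell genes in the table, none at 0, 9 were below WT without overlap, as were 4.72% of all genes tested, and 13 had a lower value at an unadjusted p under 0.05 in edgeR, as had 9.05%. The adjusted p called 0 of them in edgeR, while DESeq2 called 10 lower and limma-voom 9, beside 2.19% and 2.33% of all genes called lower by these tools. They summed to 693, 644, 1072 and 2696 CPM in WT 1 to 4 and to 570 to 707 CPM in Blimp1-flox, with Cd74 and Cd22 the most abundant, and 16 of the 17 were highest in WT 4. The difference in this sum did not pass (exact two-sided permutation test, p = 0.114, adjusted p = 0.171 over 6 lists). Exocrine pancreas genes summed to 33.2 to 70.8 CPM in WT and 51.8 to 106 CPM in Blimp1-flox (adjusted p = 0.171, exact permutation test). The sums for plasma cell, myeloid, CD8 and NK, and erythroid and platelet genes did not pass either (adjusted p = 0.171 to 0.343, exact permutation test). The smallest p that 70 assignments can give is 0.0286 (exact two-sided permutation test). A list alone at that p could not pass after adjustment over 6 lists, so no conclusion is drawn from these adjusted values. Unadjusted, the pancreas sum and the CD8 and NK sum, both higher in Blimp1-flox, each gave p = 0.0571 (exact two-sided permutation test). The erythroid and platelet sum, lower in Blimp1-flox, gave p = 0.0857 (exact two-sided permutation test).

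None of the 8 genes passed between the genotypes in edgeR at an adjusted p under 0.05, where 0.501% of the 12363 genes tested did. At an unadjusted p under 0.05 there were 2, Foxp1 lower and Foxo3 higher in Blimp1-flox, against 16.2% of all genes tested. DESeq2 and limma-voom with quality weights each called 1 of the 8, Foxp1, and called 3.81% of the 11878 genes with an adjusted p and 4.09% of the 12363. Over the 8 genes the median log2 fold change came to -0.07, beside 0.0012 over all genes tested, with 3 positive and 5 negative values. Foxp1 was the 1 gene of the 8 whose groups did not overlap in CPM, which held for 8.47% of all genes tested. In bulk RNA of sorted cells, fewer cells of a type and less RNA per cell cannot be told apart.

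**Figure D1:**
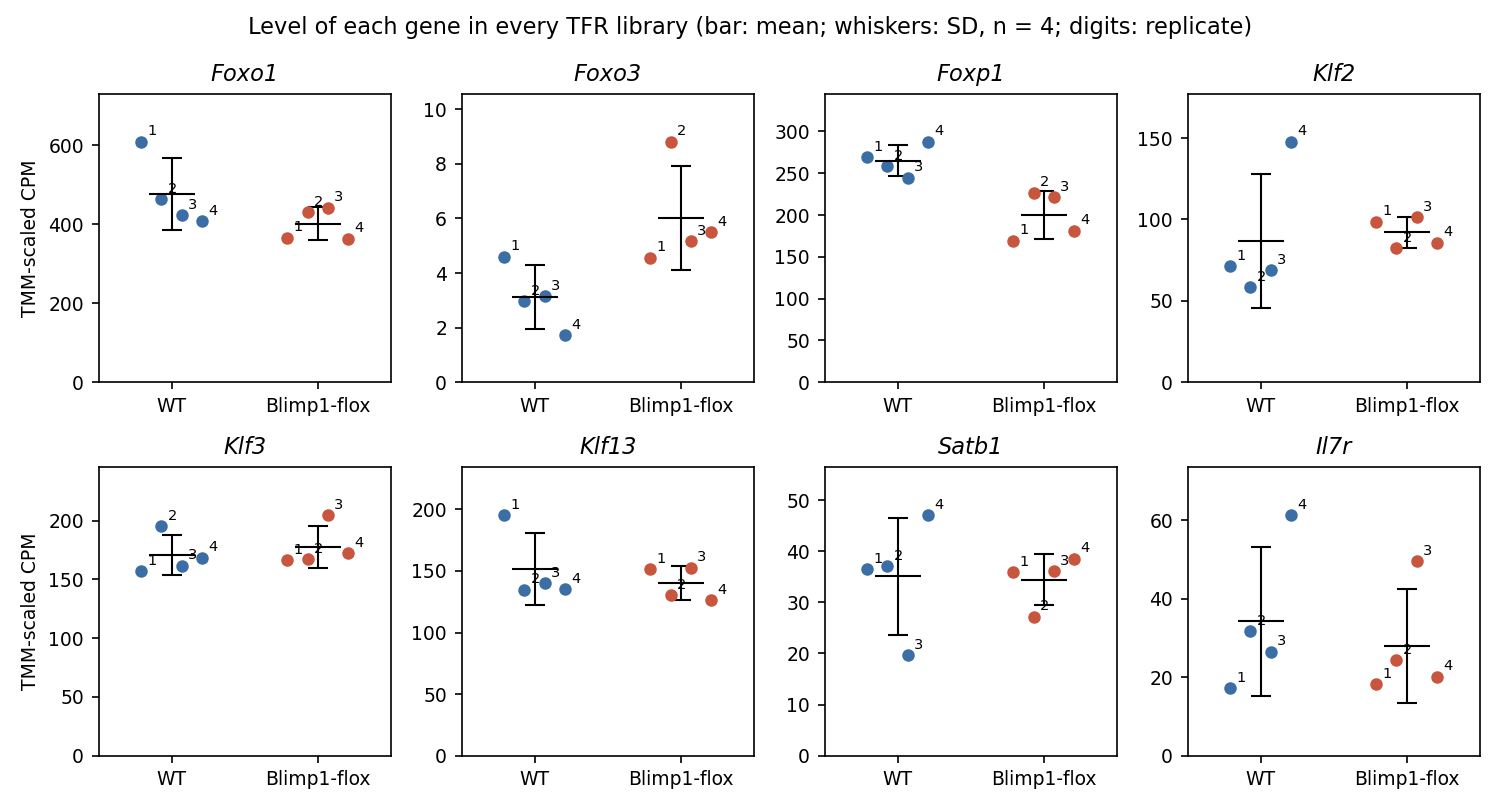
Level of each of the 8 genes in every library, in TMM-scaled CPM on linear axes that start at 0, with WT in blue and Blimp1-flox in red, the mean as a bar and the SD over 4 libraries as whiskers. Every Foxp1 value of Blimp1-flox (169 to 227) lay below every WT value (245 to 288), while the other 7 genes overlapped.

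Foxp1 encodes a forkhead repressor that holds naive T cells quiescent. Its gene model spans chromosome 6 from 98925342 to 99435345 on the minus strand (mm10), with 7484 exon bases. RefSeq (GRCm38.p6) gives 3 start sites for Foxp1, and all 3 windows of 250 bases before them hold the forkhead letters TGTTTA or their reverse TAAACA. In all, 14 windows matched the 8 genes, and the other 11 do not hold these letters, while 12% of all 32851 windows do. The Blimp1 letters GTGAAAG or CTTTCAC are in none of the 14 and in 3.57% of all windows. The KLF letters CACCC or GGGTG are in 9 of the 14 and in 52.0% of all windows. Letters were searched on both strands, each motif on its own. The following lines hold the 2 Foxp1 stretches whose start lies inside the counted gene model, as the gene with separated groups, and that of Il7r, the FOXO1 target, each cut to the bases outside annotated exons. Capitals mark the forkhead letters, and a match is a description of the sequence only.
Foxp1, chr6:99028314-99028548, minus strand: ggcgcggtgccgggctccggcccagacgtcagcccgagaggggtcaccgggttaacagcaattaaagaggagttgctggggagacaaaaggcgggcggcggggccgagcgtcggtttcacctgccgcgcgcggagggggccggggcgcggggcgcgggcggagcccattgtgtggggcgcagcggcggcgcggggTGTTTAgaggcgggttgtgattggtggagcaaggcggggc
Foxp1, chr6:99266533-99266765, minus strand: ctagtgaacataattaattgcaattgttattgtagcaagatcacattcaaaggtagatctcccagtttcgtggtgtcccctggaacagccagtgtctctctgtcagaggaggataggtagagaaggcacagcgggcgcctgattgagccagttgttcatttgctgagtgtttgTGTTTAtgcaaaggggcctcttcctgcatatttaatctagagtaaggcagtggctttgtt
Il7r, chr15:9529877-9530040, minus strand: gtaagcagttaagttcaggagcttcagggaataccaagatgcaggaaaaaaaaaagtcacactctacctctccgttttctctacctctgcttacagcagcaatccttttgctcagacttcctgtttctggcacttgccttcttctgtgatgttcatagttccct

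Foxp1 had 269, 259, 245 and 288 CPM in WT 1 to 4 and 169, 227, 221 and 181 CPM in Blimp1-flox 1 to 4. The 4 Blimp1-flox libraries were all below the 4 WT libraries, and Blimp1-flox 1 was the lowest. The means were 265 ± 18.1 and 200 ± 28.7 CPM (SD, n = 4), a log2 fold change of -0.41 ± 0.11 (SE; 95% interval -0.64 to -0.17), or 1.33-fold lower. In edgeR this did not pass over all genes (adjusted p = 0.112), and in DESeq2 (-0.40, adjusted p = 0.0229) and limma-voom (-0.43, adjusted p = 0.0293) it did. Over all alternatives the adjusted p ran from 0.0229 to 0.390 and the log2 fold change from -0.48 to -0.34. B cells also express Foxp1, and the summed B cell transcripts were highest in WT 4, as was Foxp1, at 644 to 2696 CPM in WT and 570 to 707 CPM in Blimp1-flox. Their part in the Foxp1 values was not tested. Without WT 4 the log2 fold change of Foxp1 was -0.37 (edgeR adjusted p = 0.200). Leaving out a library cannot make separate groups overlap, so no conclusion is drawn from their separation without WT 4.

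Counts per kilobase of exon were summed over Foxp1, Foxp2, Foxp3 and Foxp4, and Foxp1 made up 47.5 ± 4.10% in WT and 46.2 ± 1.34% in Blimp1-flox (SD, n = 4; exact two-sided permutation test, p = 0.743). Without WT 4 the Blimp1-flox share was 0.657 percentage points above WT. Of the other 5 genes of the FOXO and FOXP families 3 could be tested, and 0 passed in edgeR and DESeq2. In edgeR 1 was lower at an unadjusted p under 0.05, as were 9.05% of all genes tested. Limma-voom called 1 lower, beside 2.33% of all genes tested. Of these 3 family genes, 2 had a mean log2 CPM of at least 3. They were Foxp3, which defines regulatory T cells, at -0.40 (edgeR adjusted p = 0.176), and Foxp4, at -0.26 (edgeR adjusted p = 0.338). Foxp3 was the 1 called in limma-voom (adjusted p = 0.0356).

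Foxo1 encodes the main FOXO factor of T cells and was the most abundant of the 8 transcripts per exon length in WT. It lies on chromosome 3 from 52268337 to 52350109 (plus strand). It had 609, 463, 423 and 408 CPM in WT 1 to 4 and 366, 431, 442 and 363 CPM in Blimp1-flox 1 to 4. WT 1 was the highest library, WT 2 lay above every Blimp1-flox library, and WT 3 and WT 4 lay within their range. The means were 476 ± 91.6 and 401 ± 41.7 CPM (SD, n = 4), with a log2 fold change of -0.25 ± 0.13 (SE; 95% interval -0.53 to 0.03; edgeR adjusted p = 0.361). Without WT 1 it was -0.11, and no alternative called it. 

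Foxo3 encodes another FOXO factor, with its model on chromosome 10 from 42185786 to 42276742 (minus strand), and its transcript was the lowest of the 8. It had 114, 69, 72 and 46 counts, or 4.60, 2.98, 3.16 and 1.72 CPM, in WT 1 to 4. In Blimp1-flox 1 to 4 it had 75, 212, 144 and 129 counts, or 4.56, 8.82, 5.18 and 5.50 CPM. WT 1 and Blimp1-flox 1 overlapped by a small margin, and the other 3 Blimp1-flox libraries lay above every WT library. The means were 3.11 ± 1.18 and 6.01 ± 1.91 CPM (SD, n = 4), with a log2 fold change of 0.95 ± 0.32 (SE; 95% interval 0.27 to 1.64), or 1.93-fold higher. This did not pass in edgeR (adjusted p = 0.186), DESeq2 (0.0778) or limma-voom (0.0702), and over all alternatives the adjusted p ran from 0.0702 to 0.419. The counted model of Foxo3 has 2889 bases and holds 38.2% of the exon bases that GENCODE M21 gives the gene. A further 3945 GENCODE exon bases lie beyond its 3' end, so its counts cover a part of the transcript.

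Within the FOXO family the balance could be read in each library without scaling between libraries. Counts per kilobase were summed over Foxo1, Foxo3, Foxo4 and Foxo6, the last at 0 counts in every library. Foxo1 made up 97.5, 97.8, 97.2 and 96.9% of this sum in WT 1 to 4 and 96.2, 95.7, 96.6 and 95.9% in Blimp1-flox 1 to 4. Foxo3 made up 1.42, 1.21, 1.40 and 0.783% in WT 1 to 4 and 2.30, 3.76, 2.17 and 2.79% in Blimp1-flox 1 to 4. Neither share overlapped between the genotypes, and the 2 shares are parts of the same sum. Each gave p = 0.0286 in an exact two-sided permutation test, the smallest that 70 assignments can give, and an adjusted p of 0.1 over the 7 shares tested. These 2 shares alone could not pass after that adjustment, so no conclusion is drawn from the adjusted value. The mean share of Foxo3 was 1.2 ± 0.294% in WT and 2.76 ± 0.719% in Blimp1-flox (SD, n = 4). 

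The ratio of Foxo1 to Foxp1, chosen after the values were seen because their proteins act against each other at Il7r, was 3.05, 2.42, 2.33 and 1.91 in WT 1 to 4 in counts per kilobase. In Blimp1-flox 1 to 4 it was 2.91, 2.56, 2.69 and 2.70. The WT libraries spanned the whole range of the Blimp1-flox libraries (exact two-sided permutation test, p = 0.286).

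**Figure D2:**
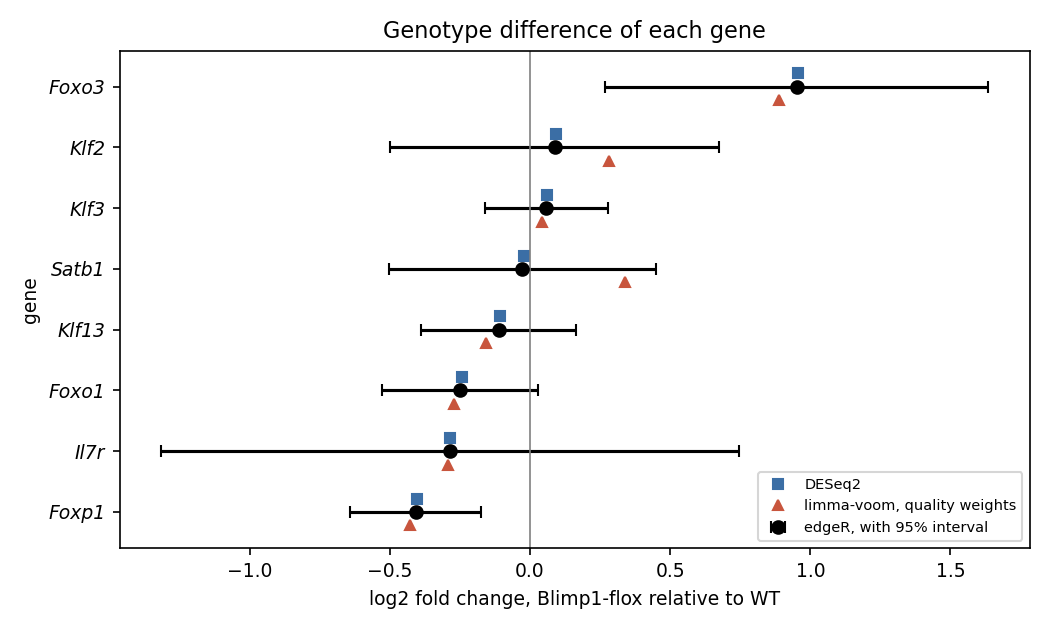
Log2 fold change of each of the 8 genes, Blimp1-flox relative to WT, from edgeR with its 95% interval (black), DESeq2 (blue squares) and limma-voom with quality weights (red triangles). The intervals of Foxp1 (-0.64 to -0.17) and Foxo3 (0.27 to 1.64) lie on one side of 0, and these intervals are not adjusted for the number of genes.

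Klf2 encodes the factor that sustains the egress receptor gene S1pr1. It lies on chromosome 8 from 72319062 to 72321654 (plus strand). It had 71.2, 58.4, 68.9 and 148 CPM in WT 1 to 4 and 98.6, 82.3, 102 and 85.8 CPM in Blimp1-flox 1 to 4. WT 4 was the highest library of all, and the other 3 WT libraries were the 3 lowest. The means were 86.6 ± 41.2 and 92.1 ± 9.47 CPM (SD, n = 4), with a log2 fold change of 0.09 ± 0.26 (SE; 95% interval -0.50 to 0.68; edgeR adjusted p = 0.901). Without WT 4 the log2 fold change was 0.48 (edgeR adjusted p = 0.0943). The groups then did not overlap, as in 11.8% of all genes tested without WT 4. Without WT 2 or WT 3 the value was -0.060 and -0.012. B cells also express Klf2, and B cell transcripts were highest in WT 4, at 2696 CPM. Their part in the Klf2 values was not tested.

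Klf3 encodes a repressor of the same family, on chromosome 5 from 64803523 to 64830129 (plus strand). It had 157, 195, 162 and 169 CPM in WT 1 to 4 and 166, 168, 205 and 172 CPM in Blimp1-flox 1 to 4. The genotypes overlapped almost fully, with 1 higher library in each. The log2 fold change of 0.06 ± 0.10 (SE; 95% interval -0.16 to 0.28; edgeR adjusted p = 0.816) was the most narrowly bounded of the 8, and without Blimp1-flox 3 it was -0.017.

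Klf13 encodes a factor known for regulating the chemokine gene Ccl5 in T cells, on chromosome 7 from 63886351 to 63938915 (minus strand). It had 195, 135, 140 and 135 CPM in WT 1 to 4 and 151, 130, 153 and 126 CPM in Blimp1-flox 1 to 4. WT 1 was the highest library, and the rest lay together. Its log2 fold change was -0.11 ± 0.13 (SE; 95% interval -0.39 to 0.16; edgeR adjusted p = 0.705), and without WT 1 it was 0.034.

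Of the summed counts per kilobase of 17 KLF genes, Klf2 made up 14.6 ± 6.40% in WT and 17.1 ± 1.29% in Blimp1-flox, and Klf3 22.9 ± 2.86% and 25.9 ± 1.43% (SD, n = 4). Klf13 made up 7.30 ± 1.18% and 7.40 ± 0.514% (SD, n = 4). None of these shares passed (exact two-sided permutation tests, p = 0.486, 0.114 and 0.943). Of the other 14 KLF genes 10 could be tested and 0 passed in edgeR, with 3 lower at an unadjusted p under 0.05. In both DESeq2 and limma-voom 2 were called lower. Over all genes tested the shares that were lower were 9.05% at an unadjusted p under 0.05, 2.19% in DESeq2 and 2.33% in limma-voom. The median log2 fold change of the 10 KLF genes was -0.18. Klf6, an abundant immediate early KLF gene, had 387 ± 50.2 CPM in WT (SD, n = 4) and a difference of -0.43 on the log2 scale (edgeR adjusted p = 0.103). Klf9, a target of glucocorticoid and thyroid hormone receptors, had one of -0.87 (edgeR adjusted p = 0.172), which was -0.54 without WT 1. Klf6 and Klf9 were the 2 called in DESeq2 (adjusted p = 0.0131 and 0.0311) and in limma-voom (adjusted p = 0.0395 and 0.0450).

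Satb1 encodes a chromatin organiser of T cell genes that is high in resting T cells, on chromosome 17 from 51736187 to 51833290 (minus strand). It had 36.5, 37.2, 19.6 and 47.1 CPM in WT 1 to 4 and 35.9, 27.2, 36.1 and 38.6 CPM in Blimp1-flox 1 to 4. Both the highest and the lowest library were WT. The log2 fold change was -0.03 ± 0.22 (SE; 95% interval -0.50 to 0.45; edgeR adjusted p = 0.964), and it changed sign in 6 of 18 alternatives, among them limma-voom (0.34, adjusted p = 0.356).

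Il7r encodes the alpha chain of the IL-7 receptor and is the target gene among the 8, with its model on chromosome 15 from 9506159 to 9529876 (minus strand). It had 17.2, 31.8, 26.5 and 61.3 CPM in WT 1 to 4 and 18.1, 24.3, 49.4 and 20.1 CPM in Blimp1-flox 1 to 4. In each genotype 1 library was well above the other 3, WT 4 and Blimp1-flox 3. The means were 34.2 ± 19.0 and 28 ± 14.5 CPM (SD, n = 4), so the SD was 55.7% and 51.9% of the mean, where the median over all genes tested was 13.9% and 13.7%. The log2 fold change was -0.28 ± 0.45 (SE; 95% interval -1.32 to 0.75; edgeR adjusted p = 0.792), which leaves changes of either sign within the interval. Without WT 4 it was 0.16 and without Blimp1-flox 3 it was -0.71 (edgeR adjusted p = 0.872 and 0.389). WT 4 also held the most B cell transcripts, while Blimp1-flox 3 had 594 CPM of them, near the low end of the 8 libraries, and the part of these transcripts in the Il7r values was not tested.

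**Figure D3:**
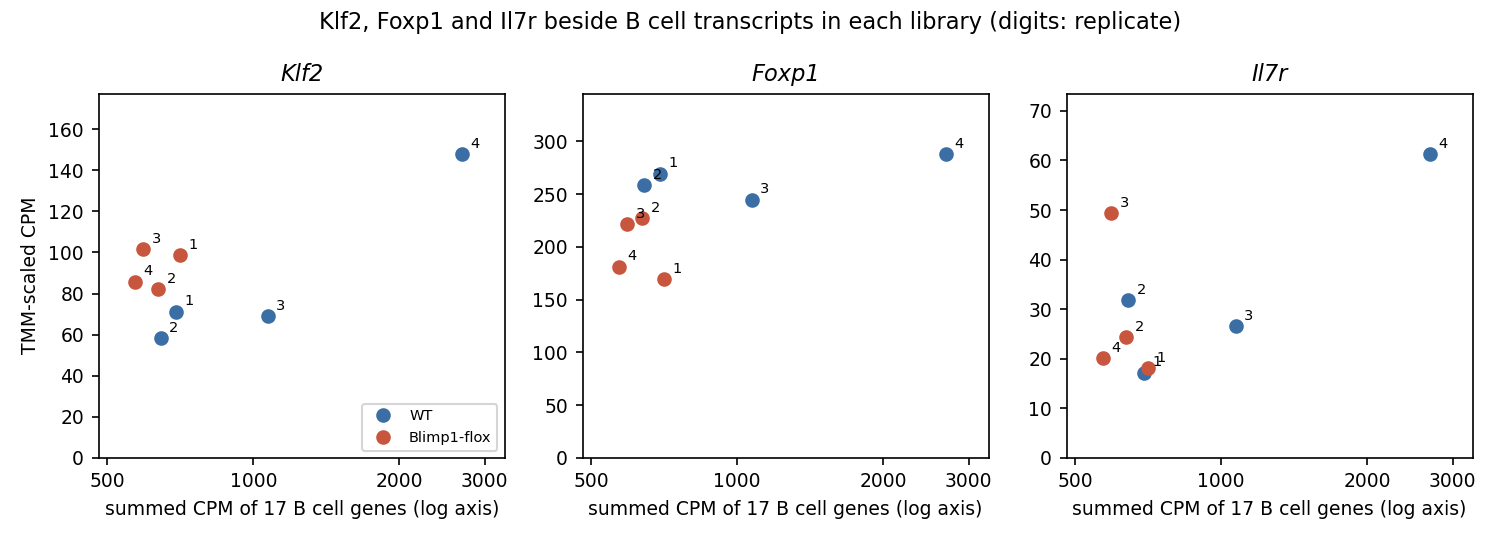
Levels of Klf2, Foxp1 and Il7r in TMM-scaled CPM against the summed CPM of 17 B cell genes on a log axis, with 1 point per library, WT in blue and Blimp1-flox in red. WT 4, at 2696 summed CPM, is the highest point in each panel, and Blimp1-flox 3 has the second highest Il7r level at 594 summed CPM.

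The genes differed in how far libraries spread and in which were high. The SD was 47.6% of the mean in WT and 10.3% in Blimp1-flox for Klf2, 32.5% and 14.5% for Satb1 and 37.9% and 31.7% for Foxo3. For Foxp1 it was 6.84% and 14.4%, and for Klf3 9.98% and 10.3%, so these 2 genes were steadier than the rest in WT. WT 4 was the highest library for Klf2, Il7r, Satb1 and Foxp1 and the lowest for Foxo3. WT 1 was the highest for Foxo1 and Klf13, Blimp1-flox 3 for Klf3 and Blimp1-flox 2 for Foxo3. Likeness was measured as the root mean square distance between profiles of log2 CPM, each scaled to a mean of 0 and an SD of 1 over the 8 libraries, so that 0 is the same profile. The closest pair of the 8 was Foxo1 and Klf13 (0.646), followed by Foxo1 and Foxp1 (0.773) and Klf2 and Il7r (0.879). The most distant was Foxo3 and Il7r (1.65). 

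**Figure D4:**
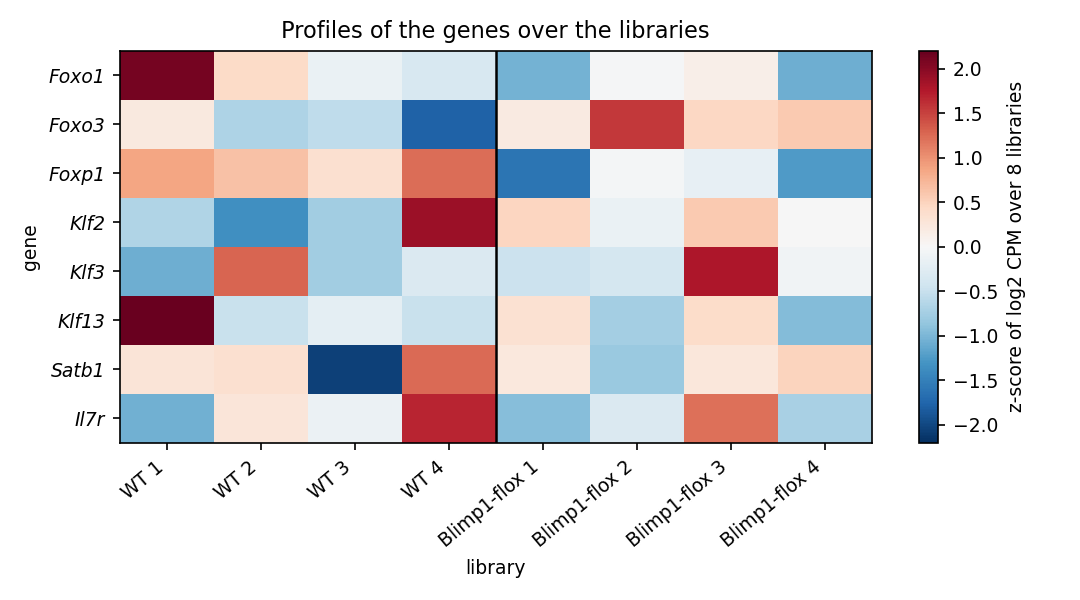
Profiles of the 8 genes over the 8 libraries as z-scores of log2 CPM, red above and blue below the mean of each gene, with a line between WT and Blimp1-flox. Klf2 and Il7r are highest in WT 4, Foxo1 and Klf13 in WT 1, and Foxp1 is the row in which all WT libraries exceed all Blimp1-flox libraries.

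Among all tested genes with a mean log2 CPM of at least 3, the profile nearest to Foxp1 was that of Atxn2l (0.135), then Frmd6 (0.197). Nearest to Il7r were Cntln (0.174) and Ttc39b (0.242), and nearest to Klf2 Med8 (0.224) and Reep5 (0.298). For Foxo1 they were N4bp1 (0.171) and Nr4a1 (0.182), the latter an immediate early gene of antigen receptor signalling. For Foxo3 they were Naa50 (0.201) and Rassf3 (0.239), for Klf13 Pvr (0.213) and Doc2a (0.279), for Klf3 Rttn (0.257) and Myo19 (0.309), and for Satb1 Kctd5 (0.280) and Zfp280c (0.325). These are descriptions over 8 libraries that share the genotype difference and the library differences above.

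Per kilobase of counted exon, the WT order of levels was Foxo1 at 85.7 ± 16.5, Klf3 at 73.8 ± 7.37, Klf2 at 47.7 ± 22.7 and Foxp1 at 35.4 ± 2.42 CPM per kilobase (SD, n = 4). Klf13 at 23.7 ± 4.60, Il7r at 10.7 ± 5.93, Satb1 at 5.17 ± 1.68 and Foxo3 at 1.08 ± 0.409 followed. The ranges of the first 4 each overlapped with the next, as did those of Il7r and Satb1, while Foxp1, Klf13 and Il7r were apart from each other and Satb1 was apart from Foxo3. In Blimp1-flox the order was the same except that Klf3, at 76.8 ± 7.88, stood before Foxo1, at 72.1 ± 7.51, with overlapping ranges (SD, n = 4). There Foxp1, at 26.7 ± 3.84, overlapped with Klf13, at 21.9 ± 2.15 (SD, n = 4). The counted models hold unequal parts of the GENCODE M21 exon bases of each gene, from 20.6% for Klf3 and 35.7% for Satb1 to 98.3% for Klf2, so levels of different genes are compared over different parts of their transcripts. Exons of Foxo1, Klf3 and Satb1 overlap annotated genes on the other strand, and those of Foxp1 and Satb1 overlap annotated genes on the same strand, so reads there are uncertain.

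Genes described as FOXO targets were read from a list of 28, all tested. Of these 0 passed in edgeR, where 1 was higher and 6 were lower at an unadjusted p under 0.05. DESeq2 called 2 and limma-voom 4, all lower. For this list and the next ones, the share of all genes tested that was lower was 9.05% at an unadjusted p under 0.05, 2.19% in DESeq2 and 2.33% in limma-voom. The median log2 fold change of the list was -0.08, with 13 positive and 15 negative values. Among members whose mean log2 CPM reached 3, the limit kept for all lists here, the 2 largest differences were in Irs2, an insulin receptor substrate (-0.87, edgeR adjusted p = 0.187), and Bnip3, a mitophagy receptor (0.73, edgeR adjusted p = 0.265). Irs2 passed in 2 of 18 alternatives, among them limma-voom (adjusted p = 0.0159), and Bnip3 in 0. Among 7 tested trafficking genes described to depend on KLF2, 0 passed in edgeR and in DESeq2, with 2 higher and 1 lower at an unadjusted p under 0.05 in edgeR, and limma-voom called 1 in each direction. Their median log2 fold change was 0.17, with 4 positive and 3 negative values. The 2 higher were Cd52, which encodes a small surface glycoprotein (0.32, limma-voom adjusted p = 0.0394), and Itgb7, an integrin subunit of gut homing (0.28, limma-voom adjusted p = 0.0637). Ccr7, the receptor for the chemokines of the T cell zone, had 141, 140, 109 and 180 CPM in WT 1 to 4 and 65.1, 88.9, 138 and 57.1 CPM in Blimp1-flox 1 to 4. The genotypes overlapped through Blimp1-flox 3 and WT 3, and the difference of -0.71 on the log2 scale did not pass (edgeR adjusted p = 0.248). Over 18 alternatives Ccr7 passed in 3, with adjusted p from 0.0218 to 0.499.

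Genes of the PI3K and AKT route, which exports FOXO proteins from the nucleus, gave 0 of 29 passing in edgeR, 0 higher and 5 lower at an unadjusted p under 0.05, 3 lower in DESeq2 and 1 lower in limma-voom. Their median was -0.03. The largest differences were in Pik3r5, a regulatory subunit of PI3K gamma, and Pik3ap1, an adaptor prominent in B cells (-0.97 and -0.79, edgeR adjusted p = 0.155 and 0.103). DESeq2 called both (adjusted p = 0.00921 and 0.0102), while limma-voom called Pik3r5 (adjusted p = 0.0306) and not Pik3ap1 (adjusted p = 0.0574). Without WT 4 the value of Pik3r5 was -0.63. Of 18 partners and feedback genes of the IL-7 receptor 0 passed in edgeR, with 3 lower at an unadjusted p under 0.05, 1 lower in DESeq2 and 2 lower in limma-voom, and the median was -0.12. Cish, a STAT5-induced feedback inhibitor, had 137 ± 33.8 CPM in WT and 66.3 ± 19.9 CPM in Blimp1-flox (SD, n = 4), which did not overlap (log2 fold change -1.04, edgeR adjusted p = 0.0820), and Gfi1, a repressor of Il7r, one of -0.43 (edgeR adjusted p = 0.182). Cish passed in 4 of 18 alternatives, with adjusted p from 1.2e-04 to 0.255. Gfi1 passed in 1 of 18, limma-voom (adjusted p = 0.0401).

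A list of 28 other quiescence genes had 27 tested and 0 passing in edgeR, with 0 higher and 7 lower at an unadjusted p under 0.05, 4 lower in DESeq2 and 6 lower in limma-voom. There were 7 positive and 20 negative values and a median of -0.12. Of the 27 genes 5 lay below WT without overlap, beside 4.72% of all genes tested. Among the 5 were Bach2, a repressor of effector genes, and Pik3ip1, an inhibitor of PI3K. Their values were -0.72 and -0.58 on the log2 scale, which did not pass in edgeR (adjusted p = 0.103 and 0.0900). Both passed in DESeq2 (adjusted p = 0.0110 and 0.00886) and in limma-voom (adjusted p = 0.0358 and 0.0368). With 1 library left out the values ran from -0.83 to -0.62 for Bach2 and from -0.66 to -0.46 for Pik3ip1. Of 21 genes of activated and effector T cells, 2 fell in edgeR, as did 30 of all 12363 genes tested, and 0 rose. DESeq2 and limma-voom each called 2 lower. At an unadjusted p under 0.05 in edgeR 1 of the 21 was higher and 7 were lower. The median was -0.16, with 9 positive and 12 negative values. The 2 were Prdm1 and Il2ra. Prdm1 is the floxed gene, so its fall was set by the design. Il2ra encodes CD25 of the IL-2 receptor (-1.39 ± 0.23 (SE), edgeR adjusted p = 0.0311). The call on Il2ra was lost when WT 2 or Blimp1-flox 1, 2 or 4 was left out, with adjusted p up to 0.105.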

How the data were processed

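The 8 libraries were grouped by the genotype in their titles. The submitters' processing notes name STAR 2.5.2b, the mm10 genome and featureCounts (Subread 1.5.1). The annotation and the strand setting are not given in the sources used here. The authors deposited raw counts for 24421 genes with the exon length of each.

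The filterByExpr function kept 12363 genes, and TMM factors ran from 0.976 to 1.02. Genotype was the one term of a robust quasi-likelihood fit (edgeR 4.0.16, R 4.3.3). Benjamini-Hochberg adjustment ran over all genes tested, with calls under 0.05, and standard errors were taken from the F statistic. DESeq2 1.42.0, limma 3.58.1, other scalings and filters, a replicate block and left-out libraries were alternatives. Leaving out WT 4 to read overlap was chosen after its values were seen. The fits were tested on simulated data. Libraries of a group differed well beyond counting noise (chi-square per degree of freedom 16.5 to 67.5), so none was a repeat deposit.

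The 8 genes and all lists were chosen with earlier results of these data known. The genes named are the 8, Prdm1, called list genes or, with none called, the 2 largest differences among list genes whose mean log2 CPM reached 3, and the 2 nearest profiles per gene. Bank1, Cd22, Cd74, Gpr83, Cd52 and Itgb7 were named after their values were seen. Promoter sequences are from RefSeq (GRCm38.p6) and exon bases from GENCODE M21. Some genes that these rules name are left out of the text.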

Additional observations from a re-analysis of the deposited data

Results flagged for a closer look

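In 3 cases 1 library stood far from the other 3 of its group, by the share of the group's whole range that lay between it and its nearest neighbour. Klf2 in WT 4 was at 148 CPM against 58.4 to 71.2 CPM in the other WT libraries (0.857). Klf3 in Blimp1-flox 3 was at 205 CPM against 166 to 172 CPM (0.844). Klf13 in WT 1 was at 195 CPM against 135 to 140 CPM (0.910). In all 40 groups were examined, and chance alone puts about 1 in 20 past the Dixon limit used.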

How the results depend on the processing

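Depth limits Foxo3 most, at 46 to 212 counts a library. In edgeR 62 genes were called, with 453 in DESeq2, 506 in limma-voom with quality weights, 157 without WT 4 and Blimp1-flox 3 together, and 20 to 127 with 1 library left out. Of the 8 genes 0 were called, and 1, Foxp1, in DESeq2 (-0.40) and in limma-voom (-0.43). Satb1 had a log2 fold change of 0.34 in limma-voom, 0.0227 with a replicate block, 0.12 without WT 4 and Blimp1-flox 3, and -0.23 to 0.15 with 1 library left out. Klf3 had -0.0243 without WT 4 and Blimp1-flox 3 and -0.0169 to 0.13 with 1 library left out. The ranges with 1 library left out were -0.0601 to 0.48 for Klf2, -0.16 to 0.0341 for Klf13 and -0.71 to 0.16 for Il7r, and for shares of the family -2.51 to 0.657 percentage points for Foxp1 and -0.254 to 0.622 for Klf13. The cause was not tested. Foxo1, Foxo3 and Foxp1 kept their sign in all 18 alternatives.

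For the related lists the counts called moved from 0 as follows. FOXO targets had 1 at an adjusted p under 0.1, 2 in DESeq2 and 4 in limma-voom, other quiescence genes 1, 4 and 6, and IL-7 receptor pathway genes 1, 1 and 2. PI3K and AKT genes had 3 in DESeq2 and 1 in limma-voom, other KLF genes 2 and 2, and in limma-voom alone KLF2-dependent genes had 2 and other forkhead genes 1. 

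The replicate numbers of the titles showed no clear pairing of the libraries, though so few libraries cannot exclude one. Deviations from the group means correlated at 0.10, 0.153, -0.102 and -0.108 for numbers 1 to 4, and 1 of 4 WT libraries correlated best with its own number. With the replicate block 52 genes were called, and the block changed no call among the 8 genes.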
